A study of Petunia x hybrida with 8 samples.

Results

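The 83 genes described here were more abundant in odo1i corolla than in wild type corolla of Petunia x hybrida, by a margin that held between every pair of libraries. They were chosen by their own read counts from the 35812 gene IDs of the deposited table. The lowest of the 3 odo1i libraries had to exceed 2 times the highest of the 3 wild type libraries in CPM, the counts of a gene per 1000000 counts of its library. The odo1i mean had to reach 10 CPM, the mean of all 6 libraries had to stay under 1000 CPM, and IDs on scaffold Peaxi162Scf00408 were left out. Because these values chose the genes, their difference between the groups is given as a description, and no test of it is offered as support.

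The wild type group holds 3 RNA libraries of corolla, the ring of petals, numbered 1, 2 and 4 in the sample titles. The odo1i group holds 3 corolla libraries with the same numbers, a name taken here to mean silencing of ODO1, although no label explains it. All 6 libraries were made from polyadenylated RNA, and the labels state no cultivar, line, flower age, harvest time or treatment. A pair of anti-GFP chromatin libraries, named pODO1 and 35S, gave 1 peak list each. Nothing says that the libraries of a group came from separate plants, so spread between them may be technical. Corolla RNA is a mixture, in which fewer cells of a type and less RNA per cell cannot be told apart.

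ODO1 (ODORANT1) is a transcription factor of the R2R3-MYB family. It is known in petunia as an activator of the shikimate and phenylpropanoid pathway genes whose products feed the benzenoid scent that petals emit in the evening. It is also known to activate the gene of a plasma membrane transporter that carries scent volatiles out of petal cells. The IDs come without gene names in the deposited files, and neither a genome nor an annotation was at hand. No name or role is therefore given to any ID, the corolla label was not checked against marker genes, and the level of ODO1 itself was not analysed here.

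Together the 83 genes took 0.222% to 0.346% of all counts in the wild type libraries and 0.981% to 1.53% in the odo1i libraries. Their summed level was 2220.1, 3458 and 2915 CPM in wild type replicates 1, 2 and 4, and 9811, 13166 and 15346 CPM in odo1i replicates 1, 2 and 4. The median over the genes was 10.8 CPM for the wild type mean and 54.7 CPM for the odo1i mean. The ratio of the group means had a median of 4.91, exceeded 4 in 54 genes and exceeded 10 in 11, counting 1 gene with no wild type reads. By level, 3 genes averaged over 1000 CPM in odo1i, 23 lay between 100 and 1000 CPM, 36 between 30 and 100 CPM, and 21 between 10 and 30 CPM. In wild type 8 averaged at least 100 CPM, 37 lay between 10 and 100 CPM, 15 between 5 and 10 CPM, and 23 under 5 CPM. The list thus ran from abundant corolla transcripts that became more abundant to transcripts that were scarce in wild type.

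**Figure D1:**
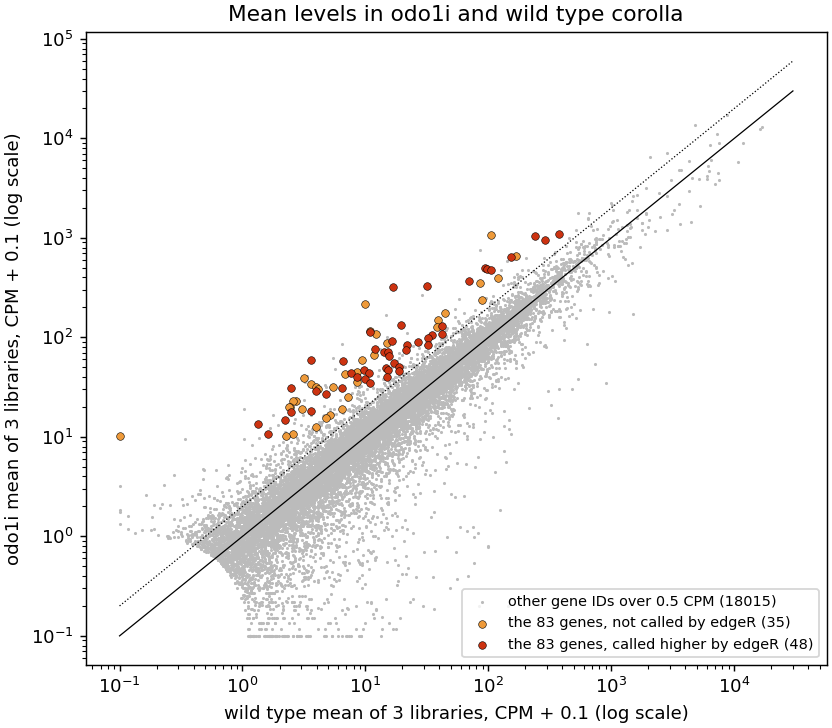
Mean level of each gene ID in the 3 wild type libraries (x axis) and the 3 odo1i libraries (y axis), both as CPM + 0.1 on log scales; the solid line marks equal means and the dotted line a 2-fold difference. Grey points are other IDs, red points are the 48 of the 83 genes that edgeR called higher and orange points the 35 it did not, and the lone orange point at the left edge is the gene with 0 wild type counts.

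The libraries held 18612881 to 20591367 counts each. Wild type replicate 4 stood apart, with Spearman correlations across genes of 0.894 to 0.916 with the other libraries, where those among the other 5 were 0.934 to 0.976. Leaving out a library loosens the limit of 2 times by construction, and 170 IDs met the rule without wild type replicate 4. Dropping wild type replicate 1 or 2 gave 111 or 123 IDs, and dropping odo1i replicate 1, 2 or 4 gave 164, 94 or 85.

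All 83 genes were among the 17667 tested by edgeR's quasi-likelihood test, and 48 were called higher in odo1i at a Benjamini-Hochberg adjusted p under 0.05 over all genes. Over all tested genes 0.374% were called higher. The test uses the contrast that chose the genes, so nothing is read from the comparison of these shares. At an unadjusted p under 0.05 in edgeR's test there were 82 of the 83, and 1254 of all 17667 tested genes were higher at that limit. Likewise the groups did not overlap at any of the 83 genes, as the rule requires, while 14.4% of all tested genes had every odo1i library above every wild type library. DESeq2 called 82 of the 83 genes, with 2.98% of all genes called higher, and limma-voom with library quality weights called 77, with 3.32% called higher. When edgeR was fitted with the replicate number as block, it called 65 of the 83 genes and 0.589% of all genes higher.

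Of the 66 genes that edgeR called higher, 18 were not on the list. On the scaffold left out lay 4 of them, and the other 14 had groups less than 2 times apart. The number of called genes among the 83 depended on single libraries. Of the wild type libraries, leaving out replicate 1 gave 1 call, replicate 2 gave 14 and replicate 4 gave 63, where edgeR called 1, 16 and 237 of all genes higher. Of the odo1i libraries, leaving out replicate 1 gave 4 calls and replicate 4 gave 6, and no other gene was called higher in these fits. EdgeR made 0 calls among the 83, or among all genes, once odo1i replicate 2 was set aside. In each of these fits the fitted log2 fold change was above 0 for all 83 genes. The rule that chose them sets this direction, so nothing is read from it.

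The most abundant genes of the list differed from wild type by about 3-fold to 10-fold in their means. In what follows the values of a group are always those of replicates 1, 2 and 4 in that order. Peaxi162Scf00071g00030, the most abundant, had 317, 412 and 404 CPM in wild type and 955, 1102 and 1224 CPM in odo1i. Its wild type libraries were already high, and its group means of 378 ± 53 CPM in wild type and 1094 ± 135 CPM in odo1i (SD, n = 3 each) differed 2.89-fold. Peaxi162Scf00595g00036, next in odo1i, had 27.4, 195 and 90.1 CPM in wild type and 437, 954 and 1785 CPM in odo1i. Its means of 104 ± 84.9 CPM in wild type and 1059 ± 679.8 CPM in odo1i (SD, n = 3 each) hide a wide spread in both groups, since odo1i replicate 4 was 4.08 times odo1i replicate 1 and wild type replicate 2 was 7.13 times wild type replicate 1. EdgeR did not call it, with a log2 fold change of 3.26 ± 0.80 (SE), while the fit with the block did.

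The other abundant genes were also well expressed in wild type. Peaxi162Scf00007g00011 had 174, 303 and 246 CPM in wild type and 972, 1310.4 and 827 CPM in odo1i. It is 1 of only 4 members of the list in which odo1i replicate 4 was the lowest odo1i library. Peaxi162Scf00811g00011 had 224, 358 and 284 CPM in wild type and 867, 993 and 1009 CPM in odo1i. Its odo1i libraries lay close together, within 1.16-fold. Peaxi162Scf00083g01919 had 151, 225 and 123 CPM in wild type and 482, 675 and 806 CPM in odo1i. Peaxi162Scf00264g00010 had 114, 163 and 179 CPM in wild type and 532, 714 and 697 CPM in odo1i. In both, odo1i replicate 1 was the lowest odo1i library.

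Peaxi162Scf00107g00910 combined a high level with a clean separation. It had 79.6, 100 and 103 CPM in wild type and 481, 549 and 477 CPM in odo1i, so its lowest odo1i library was 4.62 times its highest wild type library. Its log2 fold change was 2.37 ± 0.18 (SE). Peaxi162Scf00263g00156 had 72.6, 129 and 92 CPM in wild type and 305, 569 and 589 CPM in odo1i, with odo1i replicate 1 well under the other odo1i libraries. Peaxi162Scf00085g01215 had 95.6, 119 and 103 CPM in wild type and 327, 515 and 586 CPM in odo1i, with wild type libraries that differed by only 1.24-fold. Peaxi162Scf00253g01129 had 67.8, 177 and 112 CPM in wild type and 355, 383 and 453 CPM in odo1i, where wild type replicate 2 reached to just under the limit set by odo1i replicate 1.

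The gap between the groups, taken as the ratio of the lowest odo1i to the highest wild type library, was widest in other genes than the most abundant ones, with Peaxi162Scf00107g00910 the only gene among the first 10 of both. In Peaxi162Scf00186g00093 the lowest odo1i library was 10.3 times the highest wild type library. It had 4.03, 2.3 and 4.24 CPM in wild type and 61.7, 43.6 and 74.2 CPM in odo1i, with a log2 fold change of 4.05 ± 0.30 (SE). Peaxi162Scf00049g02410 followed with a gap of 9.44 times. It is more abundant, with 15.7, 13.9 and 20.6 CPM in wild type and 195, 355 and 411 CPM in odo1i, and its odo1i libraries differed 2.11-fold. Peaxi162Scf00860g00429 had a gap of 6.55 times and 11.5, 7.83 and 12.8 CPM in wild type and 84.1, 108 and 146 CPM in odo1i.

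Gaps of about 5 times were found in several genes of different levels. Peaxi162Scf00560g00223 had 24.1, 42.5 and 28.2 CPM in wild type and 221, 261 and 508 CPM in odo1i, and odo1i replicate 4 stood above the other odo1i libraries. Peaxi162Scf00604g00026 had 17, 17.8 and 23.3 CPM in wild type and 107, 119 and 169 CPM in odo1i. Its wild type libraries were close together, and the odo1i libraries spread 1.57-fold. Peaxi162Scf00166g00419 had 4.32, 5.42 and 9.56 CPM in wild type and 48.7, 68.4 and 56.1 CPM in odo1i, and here odo1i replicate 2 was the highest. Peaxi162Scf00062g00009 had 2.33, 2.71 and 2.1 CPM in wild type and 13.3, 35.9 and 43.6 CPM in odo1i, a nearly constant low level in wild type against a spread of 3.27-fold in odo1i. Over the whole list the lowest odo1i library was a median of 2.50 times the highest wild type library, and this ratio lay between 2 and 2.5 in 42 genes, between 2.5 and 3 in 15, between 3 and 5 in 19 and above 5 in 7, counting the gene with no wild type reads.

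**Figure D2:**
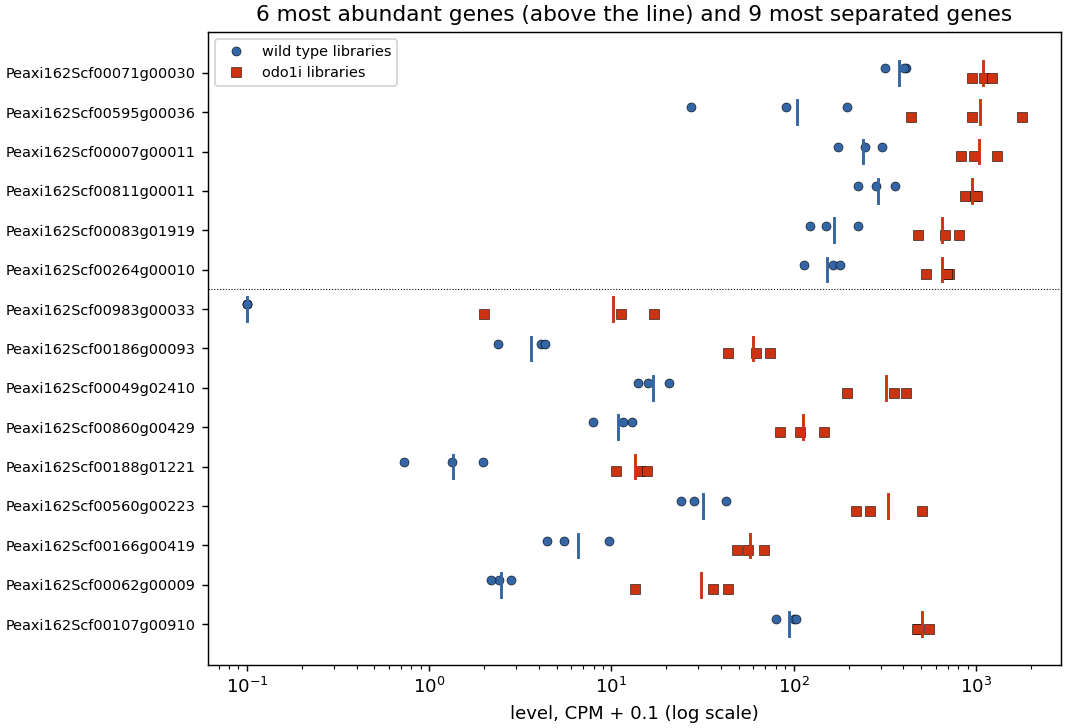
Level of 15 genes in each library as CPM + 0.1 on a log scale, with wild type libraries as blue circles, odo1i libraries as red squares and the mean of each group as a vertical line; the 6 genes above the dotted line have the highest odo1i means and the 9 below it the widest gap between groups. Peaxi162Scf00983g00033 sits at 0 CPM in the 3 wild type libraries, and in the other genes shown the lowest square is more than 2 times the highest circle.

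Among the 83 genes 1 had no wild type reads and another had them in a single library. Peaxi162Scf00983g00033 had 0 counts in each wild type library and 598 counts over the odo1i libraries, at 1.91, 17.1 and 11.2 CPM in replicates 1, 2 and 4. Against a floor of 3 counts over the wild type group, or 0.0511 CPM, it was at least 197-fold higher in odo1i. That bound covers counting error only. Odo1i replicate 1 held far fewer of its reads than the other odo1i libraries. EdgeR did not call it, while the fit with the block did. Peaxi162Scf00555g00413 had 7.48, 0 and 0 CPM in wild type and 16.8, 25.3 and 26.2 CPM in odo1i. All 154 of its wild type counts came from replicate 1, and with an adjusted p of 0.375 in edgeR's quasi-likelihood test it was the gene of the list farthest from a call. It is named because of these values. The ID listed before it, Peaxi162Scf00555g00412, had 5.39, 0.154 and 0 CPM in wild type and 10.5, 9.53 and 18.8 CPM in odo1i, so the 2 neighbouring IDs shared the same uneven wild type pattern, and reads shared between near-identical copies cannot be told apart from separate transcripts here.

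The order of the libraries within a group was alike over most of the list, which the rule did not ask for. Odo1i replicate 4 was the highest odo1i library in 64 of the 83 genes and odo1i replicate 1 the lowest in 67. The 3 odo1i libraries stood in the order 1, 2, 4 from low to high in 55 genes and in the reverse order in 1. In 10000 other genes that met the same limits on level, odo1i replicate 4 was the highest in 42.7% and replicate 1 the lowest in 43.6%, and the order 1, 2, 4 was found in 28.5%. The median log2 ratio of odo1i replicate 4 to odo1i replicate 1 was 0.65 over the 83 genes and 0.06 over the other genes of that level. In the 72 genes that a mirrored rule places lower in every odo1i library, the order was turned around: odo1i replicate 1 was the highest odo1i library in 40 and odo1i replicate 4 the lowest in 41. In both sets, odo1i replicate 1 thus lay most often nearest to wild type and odo1i replicate 4 farthest from it. These orders come from the libraries that chose the genes and have no test. The level of ODO1 in these libraries was not analysed here, and its part in the order was not tested.

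Wild type libraries also had a preferred order. Wild type replicate 1 was the lowest wild type library in 49 of the 83 genes (59.0%) and in 22.4% of the other genes of that level. The highest was replicate 2 in 40 genes, replicate 4 in 36 and replicate 1 in 7. With replicate 4 set aside, replicate 1 was under replicate 2 in 63 of the 83 genes (75.9%) and in 45.1% of the other genes. The library numbered 1 was the lowest of both groups at once in 40 of the 83 genes (48.2%), against 11% of the other genes. Taken singly, wild type replicate 1 was the lowest of its group in 59.0% of the 83 genes and odo1i replicate 1 in 80.7%. In the other genes these shares were 22.4% and 43.6%. High single shares raise the joint share by themselves, so it is not read as a link between libraries of the same number. What the shared numbers mark is not stated, and the part of a shared batch, plant or day was not tested.

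**Figure D3:**
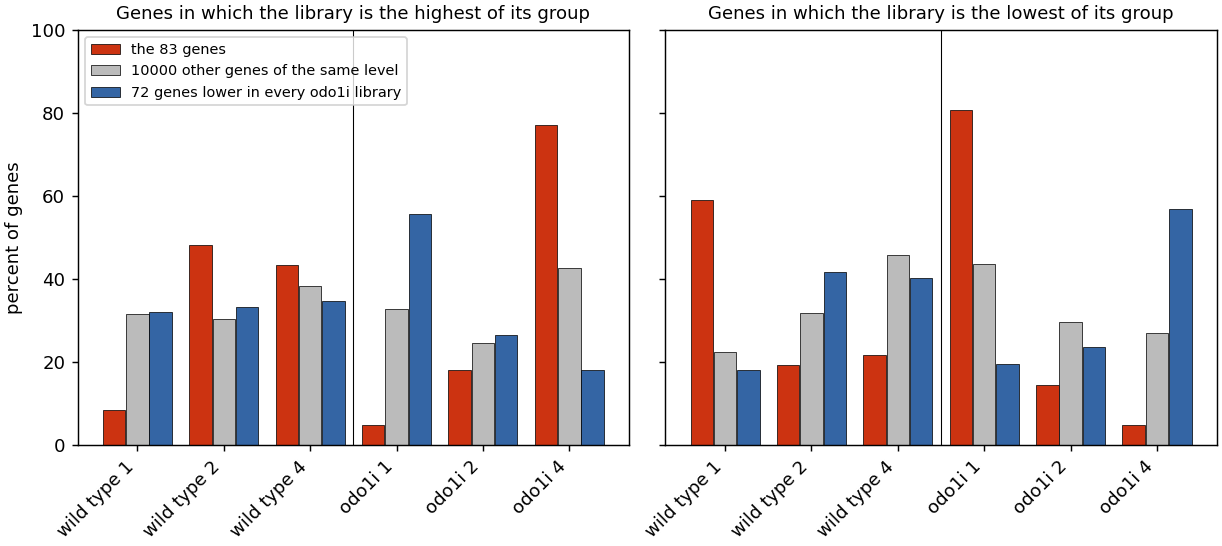
Percentage of genes in which each library was the highest (left) or the lowest (right) of its own group of 3, for the 83 genes (red), 10000 other genes of the same level (grey) and 72 genes lower in every odo1i library (blue). The red bars reach 77.1% for odo1i replicate 4 as the highest and 80.7% for odo1i replicate 1 as the lowest, and the blue bars lean the other way.

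Libraries of the same number were also set against each other. The median ratio of odo1i to wild type over the 83 genes was 4.39 for number 1, 4.68 for number 2 and 5.64 for number 4. The rule places every such ratio above 2, and the smallest in any gene was 2.09 for number 1, 2.16 for number 2 and 2.38 for number 4. Among the 81 genes with counts in every wild type library, the largest of the 3 ratios fell to number 4 in 39, to number 1 in 23 and to number 2 in 19.

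**Figure D4:**
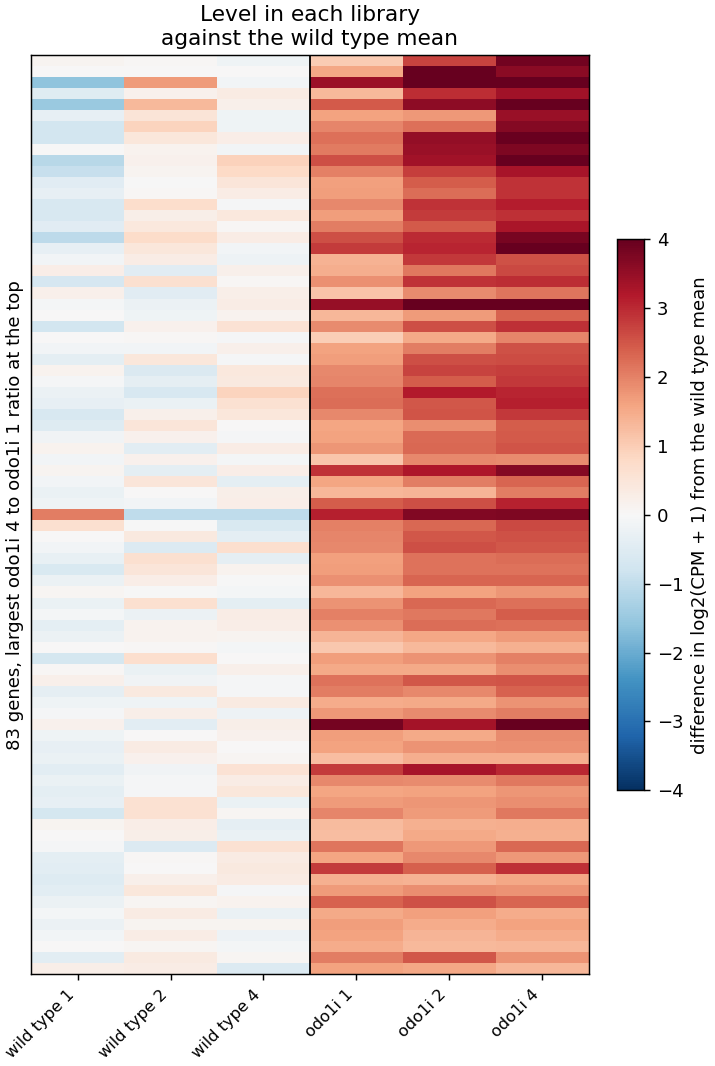
Level of the 83 genes (rows) in each library (columns), as the difference in log2(CPM + 1) from the mean of the 3 wild type libraries; rows are sorted by the ratio of odo1i replicate 4 to odo1i replicate 1 and the colour scale is clipped at 4 in either direction. The odo1i columns are red in every row, darkening from replicate 1 to replicate 4 in the upper rows and near even in the lower rows.

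The 83 genes varied more within the odo1i group than other genes did. The highest odo1i library was a median of 1.59 times the lowest over the list and 1.23 times over the other genes of that level, and 27 of the 83 genes (32.5%) exceeded 2 times, where 6.24% of the other genes did. In wild type the medians were 1.83 and 1.40. The other genes were chosen by limits on the odo1i mean and the overall mean, so they are not matched to the list in wild type level. Genes were lower in level where the odo1i libraries were uneven: the 27 uneven genes had a median of 5.03 CPM in wild type and 33.6 CPM in odo1i, and the median ratio of their group means was 8.08. Odo1i replicate 1 was the lowest in all 27 and odo1i replicate 4 the highest in 24. EdgeR called 7 of these 27, and 19 with the replicate block, where 0.374% and 0.589% of all tested genes were called higher. In 16 of them the wild type libraries also differed by over 2 times.

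At the other end 16 genes had odo1i libraries within 1.25 times of each other, with medians of 27 CPM in wild type and 83.3 CPM in odo1i and a median ratio of means of 3.17. Odo1i replicate 4 was the highest in 8 of them and odo1i replicate 1 the lowest in 8, so the common order was weaker here. EdgeR called 11 of the 16, and 12 with the replicate block. The spread within odo1i that defines the uneven and the even genes also enters the test, so nothing is read from their numbers of calls. In none of the 16 did the wild type libraries differ by over 2 times. These classes were drawn from the values they describe and have no test. The rule keeps the lowest odo1i library above 2 times the highest wild type library. A wider odo1i spread above that limit raises the ratio of means, so part of the difference between 8.08 and 3.17 is built in.

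**Figure D5:**
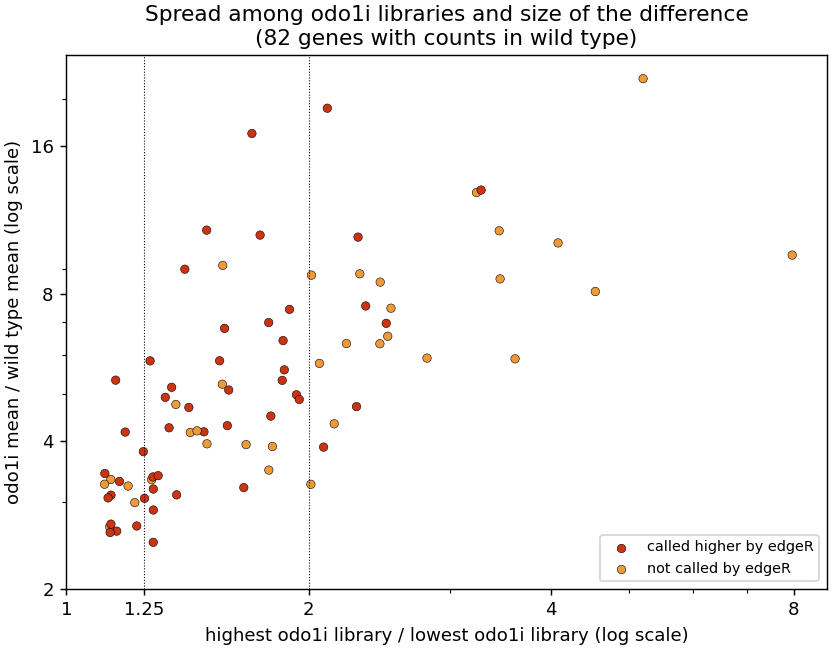
Ratio of the highest to the lowest odo1i library (x axis) and ratio of the odo1i mean to the wild type mean (y axis), both on log scales, for the 82 genes with wild type counts; dotted lines mark 1.25 and 2 times. The 16 genes left of the first line have a median ratio of means of 3.17 and the 27 beyond the second line, of which 1 has no wild type counts and is not drawn, one of 8.08. The rule that chose the genes builds in part of this rise.

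The most uneven genes show what the order looks like. Peaxi162Scf00463g00320 had 3.89, 3.68 and 2.95 CPM in wild type and 8.12, 28.1 and 64.7 CPM in odo1i, flat in wild type and 7.97 times apart within odo1i. Peaxi162Scf00423g00137 had 11.2, 20.9 and 12.5 CPM in wild type and 46.2, 49.7 and 167 CPM in odo1i, so that its mean is carried by odo1i replicate 4. Its log2 fold change of 2.48 ± 0.55 (SE) became 1.65 without that library. Peaxi162Scf00394g00426, picked here after its values were seen, had 1.36, 22.4 and 5.64 CPM in wild type and 75.4, 177 and 392 CPM in odo1i. It had the highest ratio of means among the genes with wild type reads, 22-fold, yet its 3 wild type libraries spanned 16.4 times, and edgeR did not call it with or without the block.

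The most even genes contrast with these. Peaxi162Scf00021g00015 had 15.3, 29 and 20.1 CPM in wild type and 69.4, 77.5 and 74.4 CPM in odo1i. Peaxi162Scf00351g00526 had 4.32, 5.99 and 3.65 CPM in wild type and 14.9, 16.2 and 14.5 CPM in odo1i, at a much lower level. Peaxi162Scf00362g00255 had 29, 37.1 and 37.3 CPM in wild type and 111, 98.4 and 108 CPM in odo1i. In these 3 genes the odo1i libraries differed by 1.12, 1.12 and 1.13 times, while the wild type libraries of the first differed by 1.89 times, of the second by 1.64 times and of the third by 1.28 times.

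The 83 genes lay on 76 scaffolds, and 6 scaffolds carried more than 1 of them. Peaxi162Scf00595 carried 3, among only 18 gene IDs. Beside the abundant Peaxi162Scf00595g00036, described above, it carries a pair of scarcer members. Peaxi162Scf00595g00216 had 4.66, 18.5 and 13.3 CPM in wild type and 69.3, 90.8 and 160.5 CPM in odo1i. Peaxi162Scf00595g00023 had 2.43, 5.27 and 3.87 CPM in wild type and 18.7, 24.7 and 44 CPM in odo1i. All 3 were lowest in replicate 1 and highest in odo1i replicate 4 and wild type replicate 2. These were also the most frequent lowest and highest libraries over the whole list. Peaxi162Scf00595g00023 and Peaxi162Scf00595g00036 are next to each other in the table, the only such pair on the list, and near-identical copies there could share reads.

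The other 5 scaffolds carried 2 members each. On Peaxi162Scf00188, Peaxi162Scf00188g01216 had 19.8, 26.9 and 33.3 CPM in wild type and 79.8, 102 and 88.5 CPM in odo1i. Peaxi162Scf00188g01221 had 0.631, 1.23 and 1.88 CPM in wild type and 14.2, 10.5 and 15.7 CPM in odo1i. The second is far scarcer and has the wider gap of 5.57 times. On Peaxi162Scf00109, Peaxi162Scf00109g00144 had 27.9, 28 and 40.9 CPM in wild type and 90.4, 92.3 and 113 CPM in odo1i. Peaxi162Scf00109g00064 had 12, 8.6 and 21.8 CPM in wild type and 52.7, 83.9 and 78.9 CPM in odo1i. The second was lower in each library and had the higher ratio of means, 5.09 against 3.06. On Peaxi162Scf00064, Peaxi162Scf00064g01530 had 34.2, 47.1 and 43.6 CPM in wild type and 99.2, 114 and 115 CPM in odo1i. Peaxi162Scf00064g00021 had 4.86, 11.6 and 8.86 CPM in wild type and 27.3, 39.7 and 39.1 CPM in odo1i. Both were higher in each odo1i library, and their IDs are far apart in the table.

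On Peaxi162Scf00045, Peaxi162Scf00045g00726 had 28.6, 55.6 and 30.1 CPM in wild type and 119, 127 and 136 CPM in odo1i. Peaxi162Scf00045g02121 had 1.8, 1.07 and 5 CPM in wild type and 14.1, 28.4 and 26.2 CPM in odo1i. The first was even within odo1i and the second was lowest in replicate 1. On Peaxi162Scf00439, Peaxi162Scf00439g00064 had 10.1, 5.68 and 9.46 CPM in wild type and 24.3, 38.6 and 55.6 CPM in odo1i. Peaxi162Scf00439g00082 had 1.7, 0.819 and 1.99 CPM in wild type and 7.32, 11.1 and 13.1 CPM in odo1i. Between this pair in the numbering stand Peaxi162Scf00439g00072, at 0 CPM in each library, and Peaxi162Scf00439g00071, which also did not meet the rule. Peaxi162Scf00439g00071 had 9.03, 5.17 and 20 CPM in wild type and 24.3, 28.4 and 40.7 CPM in odo1i. Its highest wild type library was replicate 4, which came close to its lowest odo1i library.

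The IDs listed just before or after a member showed little of the difference. Of 162 such neighbours 92 were tested, 2 of them members themselves. Among the other 90 the median log2 fold change was -0.11, against -0.03 over all tested genes, and 15 (16.7%) had every odo1i library above every wild type library, against 14.4% of all tested genes. EdgeR called 1 of the 90 higher, where 0.374% of all tested genes were called higher. The called neighbour was Peaxi162Scf00120g00814, with 231, 233 and 222 CPM in wild type and 417, 453 and 537 CPM in odo1i. It stands next to Peaxi162Scf00120g00813, with 7.38, 7.78 and 3.92 CPM in wild type and 20.6, 19.7 and 16.9 CPM in odo1i, so this pair was higher together, at levels far apart. Both neighbours of the abundant Peaxi162Scf00811g00011 also had higher values in odo1i, with groups that did not overlap. Peaxi162Scf00811g00010 had 45.2, 53.2 and 63.6 CPM in wild type and 90.3, 84.6 and 91.6 CPM in odo1i. Peaxi162Scf00811g00012 had 16.6, 16.9 and 29.2 CPM in wild type and 38.7, 57.5 and 53.2 CPM in odo1i. Neither was called.

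The limit of 2 times cut through a continuous run of values. The narrowest gaps inside it were those of Peaxi162Scf00253g01129, given above, and Peaxi162Scf00540g00061, both just over 2 times. Peaxi162Scf00540g00061 had 34.1, 66.9 and 33 CPM in wild type and 134, 195 and 200.5 CPM in odo1i. Peaxi162Scf00334g00323, at 2.01 times, had 6.51, 8.24 and 6.77 CPM in wild type and 16.6, 29.5 and 29 CPM in odo1i. None of these had overlapping groups. Peaxi162Scf00376g00128, at 2.03 times, had 18.7, 22.2 and 15.3 CPM in wild type and 45, 55.1 and 50.9 CPM in odo1i. Peaxi162Scf00765g00314, at 2.05 times, had 33.9, 37.9 and 24.6 CPM in wild type and 77.5, 85.8 and 87.9 CPM in odo1i. In all 5 the gap lay between wild type replicate 2 and odo1i replicate 1. Just outside, with all other conditions met, Peaxi162Scf00128g00941 had 49.7, 49.6 and 36.1 CPM in wild type and 104, 97.7 and 99 CPM in odo1i, a gap of 1.97 times. Peaxi162Scf00006g00409, at 1.96 times, had 16.5, 11 and 15.5 CPM in wild type and 32.9, 32.4 and 48.6 CPM in odo1i. The odo1i libraries of the first lay close together and those of the second did not. Peaxi162Scf00263g00323, also at 1.96 times, had 19.5, 21.5 and 18.4 CPM in wild type and 42.1, 42.4 and 43.2 CPM in odo1i, with little spread in either group.

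The chromatin libraries give a readout that the rule did not use, but only by scaffold, since no gene positions were used here. The authors' peak lists held 7289 pODO1 peaks and 8117 35S peaks on the 76 scaffolds that carry the 83 genes. The median number per 100 kb was 6.89 in the pODO1 list and 7.34 in the 35S list, with the last peak end taken as the end of a scaffold. On the other scaffolds with a tested gene and a peak, 1219 in number, the medians were 7.53 and 7.98. The middle 50% of the members' scaffolds ran from 4.77 to 7.82 for pODO1 and from 5.86 to 8.97 for 35S, so the difference was small beside the spread between scaffolds. The members' scaffolds were longer, with a median of 1269 kb against 615 kb. A peak of the pODO1 list overlapped one of the 35S list in 44.8% of cases on the members' scaffolds and in 43.2% on the others. For peaks of the 35S list the shares overlapping the pODO1 list were 40.4% and 41.1%. With every deposited peak counted, the median density was thus slightly lower on the scaffolds of these genes in both lists. Binding near the genes themselves was not tested.

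The authors' fold enrichment of a peak is its own value from the peak caller, and there is 1 library per construct. Peaks of at least 10-fold were 11 of 7289 pODO1 peaks (0.151%) on the members' scaffolds and 0.159% of 78209 on the others. In the 35S list they were 11 of 8117 (0.136%) and 51 of 82518 (0.0618%), and 6 of the 11 such peaks lay on Peaxi162Scf00047 alone. Both lists had a peak of at least 10-fold at the same place on 2 of the 76 scaffolds. On Peaxi162Scf00188, which carries a pair of members, the pODO1 peak at positions 36784 to 36963 had 11-fold enrichment and the 35S peak at 36791 to 37050 had 10.3-fold. On Peaxi162Scf00047 the peaks at 57934 to 58749 and 57908 to 58777 had 12-fold and 11.5-fold. These scaffolds carry 76 and 224 gene IDs, so the peaks cannot be tied to the members.

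A median of 43.5 gene IDs shared a scaffold with a member, counting the member, and only 3 scaffolds carried 5 or fewer. Peaxi162Scf03779 carries 4 gene IDs, of which only the member Peaxi162Scf03779g00019 was tested. It had 8.74, 6.65 and 7.09 CPM in wild type and 37.2, 46.7 and 47.3 CPM in odo1i, a difference of 2.50 ± 0.18 (SE) in log2. The scaffold holds 13 peaks of the pODO1 list and 15 of the 35S list up to position 99758. The strongest pODO1 peak, 6.68-fold at 98965 to 99245, overlapped a 35S peak of 4.81-fold at 98954 to 99217. The strongest 35S peak, 6.58-fold at 68933 to 69086, had no pODO1 counterpart.

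Peaxi162Scf01190 carries 3 gene IDs, including the member Peaxi162Scf01190g00006, with 0.631, 2.97 and 5.59 CPM in wild type and 19.7, 34.6 and 63.8 CPM in odo1i. Its strongest pODO1 peak was 6.53-fold at 151599 to 151712 and overlapped a 35S peak of 5.40-fold at 151613 to 151724. Peaks at 191800 to 191895 and 191784 to 191908 were 5.97-fold in the pODO1 list and 6.03-fold in the 35S list. Peaxi162Scf02113 carries 5 gene IDs, including Peaxi162Scf02113g00020, with 9.96, 8.7 and 11 CPM in wild type and 26.1, 34.6 and 54.5 CPM in odo1i. There the strongest pODO1 peak was 6.26-fold at 45577 to 45713, over a 35S peak of 3.96-fold at 45583 to 45736. The strongest 35S peak, 6.64-fold at 13112 to 13230, stood alone. These 3 scaffolds and their members were picked after the number of IDs per scaffold was seen, and none of their peaks reached 10-fold. Over all 76 scaffolds the strongest pODO1 peak had a median of 7.93-fold and overlapped a 35S peak on 65 of them. The strongest 35S peak had a median of 6.98-fold and overlapped a pODO1 peak on 54. These overlaps are not given here for the other scaffolds, so they are not read as particular to the members' scaffolds.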

How the data were processed

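RNA from corolla was sequenced in 6 oligo-dT libraries, per the labels' protocols. The deposited table holds whole counts of reads for each gene ID, which the authors left without normalization. Cutadapt, TopHat2, HTSeq, DESeq2, Bowtie2 and MACS2 are named without version or role, per the submitters' processing notes. The build, the annotation and any use of strand are unstated in these sources, so genes that overlap, lie antisense or are near-identical may share reads. The deposited peak lists give a fold enrichment (a ratio) and a −log10 q per peak, without a header. The −log10 q, the authors' deposited value, served only as an alternative minimum. The control of the ChIP libraries is not given in the sources used here. Peak positions are counted from 1.

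The 83 genes and all lists were chosen with earlier results of these data known. CPM used the column totals, with no other scaling. No libraries of a group were duplicates: chi-square per degree of freedom between them was 26.4 to 151.7. All genes were fitted with edgeR 4.0.16 in R 4.3.3, with filterByExpr (17667 genes kept), TMM scaling and the two-sided quasi-likelihood test. The same code was also run on simulated counts, drawn without an outlying library or a replicate effect. Nothing about the calls in these data is read from that run. Standard errors were taken as the absolute log2 fold change over the square root of F. Alternatives used DESeq2 1.42.0 and limma 3.58.1. The other steps used Python 3.11.15, NumPy 2.4.6, pandas 2.3.3 and matplotlib 3.10.9. Peaks overlapped when they shared at least 1 base. Other genes of the same level are the 10000 IDs outside the list with an odo1i mean of at least 10 CPM and a mean under 1000 CPM.

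Both groups carry the numbers 1, 2 and 4, with no statement of what they mark. Deviations of same-numbered libraries from their group means, in log2(CPM + 1) with column totals, correlated at 0.221, 0.102 and 0.115, and with TMM at 0.222, 0.109 and 0.120. On edgeR's log2 CPM scale with a prior count of 2 they were 0.189, 0.0977 and 0.115. The limit of 0.1 for treating libraries as paired is therefore passed on some scales and missed on others, and fits with and without the replicate block are both given. Pairing comes from these correlations, not from the labels.

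Named genes are the 10 of highest odo1i mean, the 10 with the widest gap between lowest odo1i and highest wild type library, the 5 with the narrowest gap, the 3 IDs nearest outside the limit, the 3 of highest and the 3 of lowest CV within odo1i, and all members that share a scaffold. Others were named after their values were seen, which include neighbours in the table and members of scaffolds with few IDs. Lists of gene names could not be used, since the IDs are not paired with names in the files used here.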

Additional observations from a re-analysis of the deposited data

How the results depend on the processing

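Against 83 IDs that met the rule, TMM-scaled totals and DESeq2 size factors each left 73, all among the 83, and the smallest gap between groups with TMM was 1.88 times. A 1.5-fold limit gave 222, a 3-fold limit 26, and the other limits on level or scaffold 68 to 89. With 1 library left out 85 to 170 IDs met it. EdgeR called 66 genes higher, 48 of them on the list. DESeq2 called 527 and 82, limma-voom with quality weights 586 and 77, edgeR without a low-count filter 109 and 66, and edgeR with the replicate block 104 and 65. Of the 48, the block kept 45, limma-voom without weights 40 of its 47, and DESeq2, quality weights and no filter 48. With 1 library left out edgeR called 0 to 237 genes higher, and 0 to 63 of the 83. Fewer libraries by construction lower the power, and only without wild type replicate 4 did both numbers exceed those with all libraries. The cause of the other shifts was not tested. All 6 libraries deviated most like their own number in the other group. For the 39 named members no alternative reversed the direction, which the rule that chose them already sets.

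A −log10 q of at least 5 lowered the median density on the members' scaffolds to 2.36 pODO1 and 2.48 35S peaks per 100 kb, against 2.64 and 2.42 on the other scaffolds. A fold enrichment of at least 4 gave 3.84 and 2.64, against 4.42 and 2.72. For 35S the members' scaffolds thus lay above the others in one setting and below in the rest. Depth limits the scarcest genes: 3 members had under 100 counts over the wild type libraries.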
